A study of Mus musculus with 2 samples.

Results

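The genes described here were the 10 genes of the MHC class I presentation pathway *H2-K1*, *H2-D1*, *H2-T23*, *H2-Q7*, *B2m*, *Tap1*, *Tap2*, *Tapbp*, *Psmb8* and *Psmb9*, of 27998 genes counted. They were chosen by name and not by a rule on their values in these cells, though earlier results of these data were known at the time. All 10 were measured in islet CD8 T cells and in islet regulatory CD4 T cells (Tregs), with and without CD137, the costimulatory receptor encoded by *Tnfrsf9*. Each value below is a number of UMIs, the molecular barcodes that count captured RNA molecules, or CPM, the UMIs of a gene divided by all UMIs of the same group of cells and scaled to a total of 1000000.

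The study sorted CD8 T cells and GFP-positive Tregs together from the pancreatic islets of NOD mice, a strain that develops autoimmune diabetes, and made 1 droplet library per genotype. The wild-type library came from NOD.Foxp3-EGFP mice and the knockout library from NOD.Tnfrsf9-/-.Foxp3-EGFP mice, which lack CD137 in all cells and not in Tregs alone. Each library pooled 6 female mice of 9 to 10 wk of age, and both genotypes carried the Foxp3-EGFP reporter. With 1 library per genotype there was no replicate, so every interval below covers counting error only, no p-value was computed, and a difference between genotypes cannot be told apart from a difference between libraries.

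MHC class I molecules show peptides from inside a cell to CD8 T cells. The immunoproteasome subunits encoded by *Psmb8* and *Psmb9* cut proteins into peptides, the transporter encoded by *Tap1* and *Tap2* carries the peptides into the endoplasmic reticulum, tapasin (*Tapbp*) helps load them, and a heavy chain pairs with beta-2 microglobulin (*B2m*) to hold them. *H2-K1* and *H2-D1* encode classical heavy chains, *H2-T23* encodes Qa-1, which presents to inhibitory receptors and to unusual T cells, and *H2-Q7* encodes Qa-2. Interferons are well known inducers of this pathway, in T cells as in most other cells.

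Of 2804 wild-type and 2991 knockout cells, those with 200 to 5000 genes and no more than 20% of UMIs from mitochondrial genes stayed in, 2714 and 2915. CD8 T cells were those with 2 or more *Cd8a* and *Cd8b1* UMIs and no *Cd4* or *Foxp3* UMI. Tregs were those with no *Cd8a* or *Cd8b1* UMI and at least 1 UMI of *Cd4*, *Foxp3*, *Il2ra* or *Ikzf2*. This gave 891 wild-type and 1200 knockout CD8 T cells and 1552 wild-type and 1444 knockout Tregs, and 271 cells of each library fell in neither class. The groups held 7014920, 7908290, 8888924 and 8152788 UMIs in that order, with medians of 6076, 5275, 4302 and 4308.5 UMIs per cell. The libraries had 16 cell barcodes in common, which 29 cells of the classes carried. The check of the targeted gene followed the labels: *Tnfrsf9* stood at 106 CPM in wild-type and 32.0 in knockout CD8 T cells, and at 337 and 110 in Tregs. Residual *Tnfrsf9* UMIs remained in the knockout library, and the sources used here do not give which part of the gene was deleted.

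The Treg class was checked against genes that mark Tregs. *Ikzf2*, which encodes Helios, had a UMI in 95.4% of the wild-type Tregs and 93.6% of the knockout ones. Since *Ikzf2* UMIs admitted cells to the class, these shares cannot test it. CD8 T cells carried *Ikzf2* too, at 40.3% (wild type) and 28.1% (knockout). Detection of *Cd4*, also a gene of the rule, was lower among Tregs, at 60.4% (wild type) and 57.8% (knockout). For *Il2ra* the Treg shares were 37.0% (wild type) against 42.4% (knockout). *Ctla4*, an inhibitory receptor gene that the rule did not use, had one in 94.6% and 93.6% of Tregs, but also in 65.1% and 50.4% of CD8 T cells. *Foxp3* itself was sparse, with a UMI in 13.2% (95% exact binomial interval, 11.6 to 15.0) of wild-type and 19.5% (17.4 to 21.6) of knockout Tregs. Every nucleated cell makes class I, so no cell type in these libraries could serve as a group that lacks the 10 genes.

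Except for *B2m*, the genes lie on mouse chromosome 17, in or beside the MHC, while *B2m* lies on chromosome 2 (GRCm38). *Psmb9*, *Tap1*, *Psmb8* and *Tap2* form a cluster there, at chr17:34181987-34187764, chr17:34187553-34197225, chr17:34197721-34201454 and chr17:34203527-34216321. *Tapbp* lies at chr17:33915899-33929292, *H2-K1* at chr17:33996017-34000347, *H2-D1* at chr17:35262730-35267499, *H2-Q7* at chr17:35439155-35443773, *H2-T23* at chr17:36029773-36032855 and *B2m* at chr2:122147686-122153083. Promoters from 250 bases before to 50 bases after the start site were available from RefSeq (GRCm38.p6) for 9 of the 10 genes, without *Tap2*. The *Tap1* and *Psmb9* promoters face away from each other and their windows shared 275 of 300 bases. The classical class I promoters are known for an NF-kappa B site beside an interferon-response element, so these stretches are shown for the 3 heavy chain genes in which a search on both strands found GGGATTCCC and TTTCNNTTC, the capitals in each line.
H2-K1: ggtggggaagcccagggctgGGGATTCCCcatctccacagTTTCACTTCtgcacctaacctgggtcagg
H2-D1: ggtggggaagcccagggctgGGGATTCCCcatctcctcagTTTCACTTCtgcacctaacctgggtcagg
H2-Q7: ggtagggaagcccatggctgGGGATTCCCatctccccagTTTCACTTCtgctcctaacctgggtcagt
They lie at chr17:34000409-34000477 on the minus strand, chr17:35262904-35262972 on the plus strand and chr17:35439003-35439070 on the plus strand. The *H2-K1* and *H2-D1* stretches had the same base at 68 of 69 positions. Of 27025 promoters of the same length, 0.370% held GGGATTCCC and 7.56% held TTTCNNTTC.

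A longer form, the interferon-stimulated response element (ISRE), was searched on both strands and found in 3.49% of all promoters. Among the 9 promoters it was in those of *H2-T23* and *B2m*, shown with the match in capitals because these genes gave different ratios in interferon-marked cells.
H2-T23: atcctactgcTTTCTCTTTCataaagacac
B2m: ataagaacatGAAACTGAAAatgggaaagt
They lie at chr17:36032806-36032835 on the minus strand and chr2:122147538-122147567 on the plus strand. The *Tap1*, *Tapbp*, *Psmb8* and *Psmb9* windows held neither form, which says only that these letters were not in those windows. The start sites of the windows were not always the ends of the gene spans given above. The *Tapbp* window, chr17:33919228-33919527, and the *Psmb8* window, chr17:34197945-34198244, lie inside those spans. The windows of *Psmb9* and *H2-D1* and the printed *H2-T23* stretch do so too. Sequence before the other starts of these genes was not searched. The shorter and the longer form cannot match from the same first base. The sequences are of the C57BL/6 reference, whereas NOD mice carry another MHC haplotype, so reads of NOD class I genes were counted against the alleles of another strain. The heavy chain genes are also near copies of each other, and how reads shared between them were counted is not given in the sources used here; their single-gene values are therefore less certain than those of *B2m* and the processing genes.

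Together the 10 genes took 1.09% of all UMIs in wild-type CD8 T cells, 0.966% in knockout CD8 T cells, 1.31% in wild-type Tregs and 1.19% in knockout Tregs. Per cell, the median share was 1.07%, 0.953%, 1.34% and 1.18% in the same order. The spread between cells was wider than the differences between groups, with 5th to 95th percentiles of 0.608 to 1.85% in wild-type and 0.573 to 1.60% in knockout CD8 T cells, and of 0.663 to 2.34% and 0.631 to 2.09% in Tregs. Across all 4 groups, 1 cell, a wild-type Treg, held no UMI of any of the 10 genes.

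**Figure D1:**
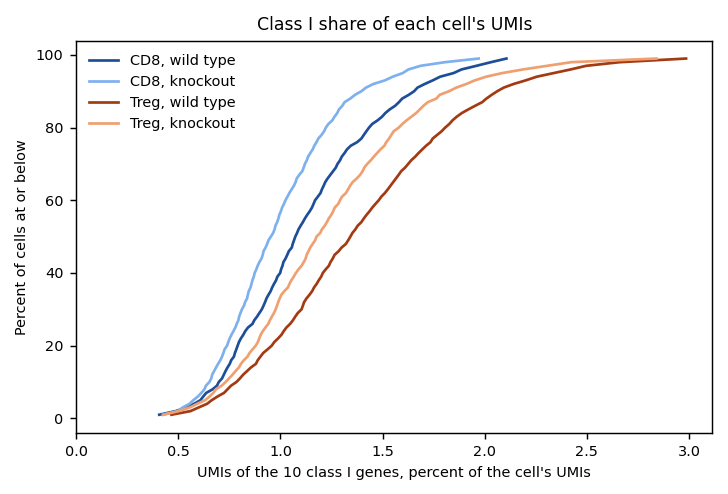
The x axis gives the UMIs of the 10 class I genes as a percent of each cell's UMIs, and the y axis the percent of cells at or below that value, with 1 line for each lineage and genotype. The line of wild-type Tregs (median 1.34%) lies farthest right and that of knockout CD8 T cells (median 0.953%) farthest left, and the ranges of cells in the 4 groups overlap widely.

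The classical heavy chains were lowest in knockout CD8 T cells and highest in wild-type Tregs. *H2-K1* stood at 1450 CPM (95% exact Poisson interval, 1422 to 1478) in wild-type and 1181 (1157 to 1205) in knockout CD8 T cells, and at 1722 (1695 to 1750) and 1535 (1508 to 1562) in Tregs. *H2-D1* stood at 2391 (2355 to 2428) and 2107 (2075 to 2139) in CD8 T cells, and at 2934 (2898 to 2969) and 2812 (2776 to 2849) in Tregs. For both genes no 2 neighbouring groups overlapped beyond counting error, and the top group was 1.46 and 1.39 times the bottom one.

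Of the nonclassical heavy chains, *H2-T23* had 305 (292 to 318) CPM in wild-type and 261 (250 to 272) in knockout CD8 T cells, and 380 (367 to 393) and 366 (353 to 380) in Tregs. The wild-type and knockout Tregs overlapped, and both CD8 groups lay below them. *H2-Q7* had 339 (326 to 353) and 249 (238 to 260) in CD8 T cells and 349 (337 to 362) and 297 (286 to 309) in Tregs. Here the 2 wild-type groups overlapped and stood above the 2 knockout groups, so *H2-Q7* was ordered by genotype rather than by lineage. *B2m*, the light chain shared by all of them, had 4756 (4705 to 4807) and 4469 (4422 to 4516) in CD8 T cells and 6024 (5973 to 6075) and 5280 (5230 to 5330) in Tregs, with no overlap between any groups.

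The transporter and loading genes had fewer UMIs and wider intervals. *Tap1* had 116 (108 to 124) CPM in wild-type and 96.9 (90.1 to 104) in knockout CD8 T cells and 148 (140 to 157) and 133 (125 to 141) in Tregs. *Tap2* had 149 (140 to 158) and 144 (136 to 153) in CD8 T cells and 174 (165 to 183) and 173 (164 to 182) in Tregs, so that it was ordered by lineage while the genotypes overlapped in both lineages. *Tapbp* had 192 (182 to 203) and 171 (162 to 180) in CD8 T cells and 222 (212 to 232) and 204 (194 to 214) in Tregs.

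The immunoproteasome genes were ordered by genotype. *Psmb8* had 808 (787 to 829) CPM in wild-type and 668 (650 to 686) in knockout CD8 T cells, and 769 (751 to 788) and 709 (690 to 727) in Tregs. *Psmb9* had 370 (356 to 385) and 314 (302 to 326) in CD8 T cells and 377 (365 to 390) and 343 (331 to 356) in Tregs. For each of the 2 genes the wild-type groups overlapped each other and lay above both knockout groups.

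**Figure D2:**
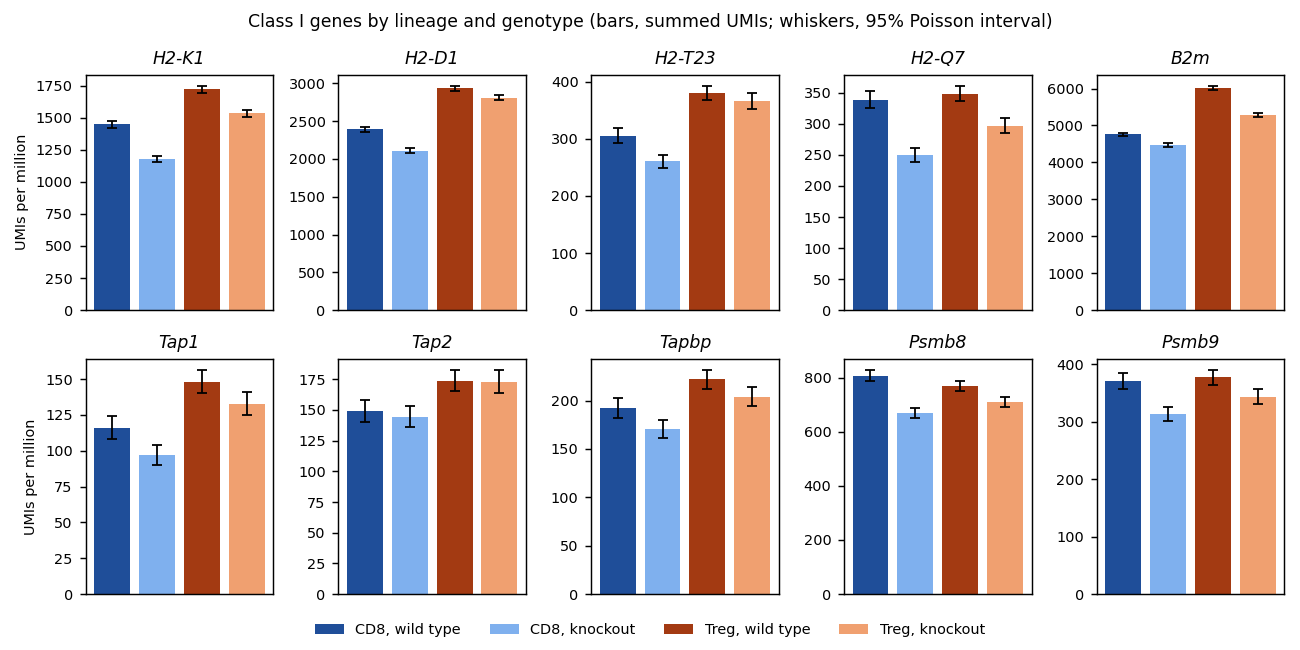
Each panel is 1 gene, with bars for the CPM of the 4 groups, from an axis that starts at 0, and whiskers for the 95% exact Poisson interval. The bar of knockout CD8 T cells is the lowest in every panel, from 96.9 for *Tap1* to 4469 for *B2m*.

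The share of cells with a UMI depended on depth. At full depth, *H2-T23* had a UMI in 81.6% of the wild-type CD8 T cells and 74.2% of the knockout ones, and for Tregs in 79.4% and 76.3%. With every cell thinned to 2000 UMIs, which left out 17 and 16 shallower CD8 T cells and 76 and 55 shallower Tregs of the wild-type and knockout libraries respectively, these shares became 43.9%, 38.9%, 55.1% and 51.9%. The order of the lineages in the wild-type library thus turned around at equal depth, and for *H2-T23* became that of the CPM. *H2-D1*, *H2-Q7* and *Tapbp* did not keep the CPM order throughout. *H2-D1* was found in 97.0% (95.7 to 98.0) of wild-type and 97.6% (96.6 to 98.4) of knockout thinned CD8 T cells. In thinned wild-type CD8 T cells and knockout Tregs, *H2-Q7* was found in 45.2% (41.9 to 48.6) and 45.8% (43.1 to 48.5). For *Tapbp* these shares were 33.2% (30.1 to 36.4) and 32.8% (30.4 to 35.4). Each pair had overlapping intervals. *Psmb8* was found in 77.0% (74.1 to 79.8) and 71.6% (69.0 to 74.2) of thinned CD8 T cells and in 77.0% (74.7 to 79.1) and 74.4% (72.0 to 76.6) of thinned Tregs. *B2m* was found in all thinned cells of 3 groups and in 99.9% of knockout Tregs.

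The first comparison asked whether the genes differed between CD137-deficient and wild-type cells of the same lineage. In CD8 T cells all 10 genes had a lower level in the knockout library, and for 9 of them, all but *Tap2*, the interval of the log2 ratio lay below 0. None of the 10 was past 1.5-fold in either direction, where 13.7% of the 11083 genes with at least 20 UMIs were higher and 8.2% lower by that much. The median log2 ratio of the 10 genes, knockout over wild type, was -0.23, against 0.04 over all genes tested, of which 46.9% had a ratio below 0. A count of 9 intervals below 0 has to be read with the depth of these genes, since 20.7% of all tested genes lay below 0 by the same measure and intervals are narrower for abundant genes.

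By role, the log2 ratios in CD8 T cells were -0.30 (95% exact interval, -0.34 to -0.25) for *H2-K1*, -0.18 (-0.21 to -0.15) for *H2-D1*, -0.23 (-0.31 to -0.14) for *H2-T23* and -0.45 (-0.53 to -0.36) for *H2-Q7*. *H2-Q7* was the member with the widest gap, 339 against 249 CPM, or 1.36 times higher in the wild type. The light chain *B2m* differed least among those with an interval below 0, at -0.09 (-0.11 to -0.07). *Tap1* was at -0.26 (-0.40 to -0.11), *Tapbp* at -0.17 (-0.28 to -0.06) and *Tap2* at -0.05 (-0.17 to 0.07). *Psmb8* and *Psmb9* were at -0.27 (-0.33 to -0.22) and -0.24 (-0.32 to -0.16).

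In Tregs all 10 ratios were again below 0, with a median of -0.13 against 0.04 over the 11428 genes tested. The intervals of 8 genes lay below 0, and those of *H2-T23* (-0.05, interval -0.13 to 0.02) and *Tap2* (-0.01, -0.11 to 0.10) included it. Over all genes tested 45.2% of ratios and 11.8% of intervals were below 0. None was past 1.5-fold, against 6.93% of genes higher and 3.62% lower. *H2-Q7* again had the lowest ratio, -0.23 (-0.31 to -0.15), followed by *B2m* at -0.19 (-0.21 to -0.17) and *H2-K1* at -0.17 (-0.20 to -0.13). *B2m* was the 1 member with a lower ratio in Tregs than in CD8 T cells. The other members with an interval below 0 were *H2-D1* at -0.06, *Tap1* at -0.16, *Tapbp* at -0.12, *Psmb8* at -0.12 and *Psmb9* at -0.14.

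The 26 other listed genes of class I presentation lay on both sides of 0. In CD8 T cells their median log2 ratio was -0.10, against 0.04 over all genes tested. Among them 57.7% of ratios were below 0, against 46.9% over all genes. There were 9 intervals below 0 (34.6%, against 20.7% over all genes), 5 above (19.2%, against 24.6%) and 12 that included 0. Past 1.5-fold were 5 of the 26, all higher in the knockout, against 13.7% of all genes higher and 8.2% lower. The largest ratios belonged to genes of few UMIs: *H2-T24*, a nonclassical class I gene, with 25 against 9 UMIs and a ratio of 1.30 (0.15 to 2.58), *Fcgrt*, which encodes the neonatal Fc receptor, with 73 against 32 and 1.02 (0.40 to 1.66), *Mr1*, which presents vitamin metabolites, with 48 against 26 and 0.71 (-0.01 to 1.46), and *H2-Q10* with 35 against 20 and 0.63 (-0.20 to 1.505). *Irf1*, a transcription factor that drives class I genes, had 0.61 (0.51 to 0.72). Its sign turned to -0.05 when cells with any UMI of the naive markers *Lef1* or *Ccr7* were left out (374 knockout and 490 wild-type cells remained).

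In Tregs 25 of the listed genes were tested, with a median of 0.00071, 7 intervals below 0, 6 above and 12 that included 0, and 1 was past 1.5-fold. The 5 with the largest ratios were *H2-T24* at 0.71 (-0.42 to 1.90), *Rfxank*, a subunit of the RFX factor of MHC promoters, at -0.50 (-0.84 to -0.16), *H2-Q10* at 0.45 (-0.58 to 1.49), *H2-T22*, which is recognised by gamma delta T cells, at -0.38 (-0.48 to -0.28), and *H2-Q4* at 0.35 (0.25 to 0.45).

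*H2-Q4* in CD8 T cells was looked at after its values were seen. *H2-Q4*, a close relative of *H2-Q7*, had 121 CPM in wild-type and 180 in knockout CD8 T cells, a ratio of 0.57 (0.45 to 0.70), and 165 and 211 in Tregs. Within the sum of 7 heavy chain genes, *H2-Q4* made up 2.52% (2.35 to 2.69) in wild-type and 4.34% (4.13 to 4.57) in knockout CD8 T cells and 2.83% (2.69 to 2.97) and 3.85% (3.68 to 4.04) in Tregs, while *H2-Q7* made up 7.05% and 6.00% in CD8 T cells and 5.96% and 5.43% in Tregs. Whether reads of 1 of these near copies were lost or counted for the other is not given in the sources used here, and this was not tested.

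**Figure D3:**
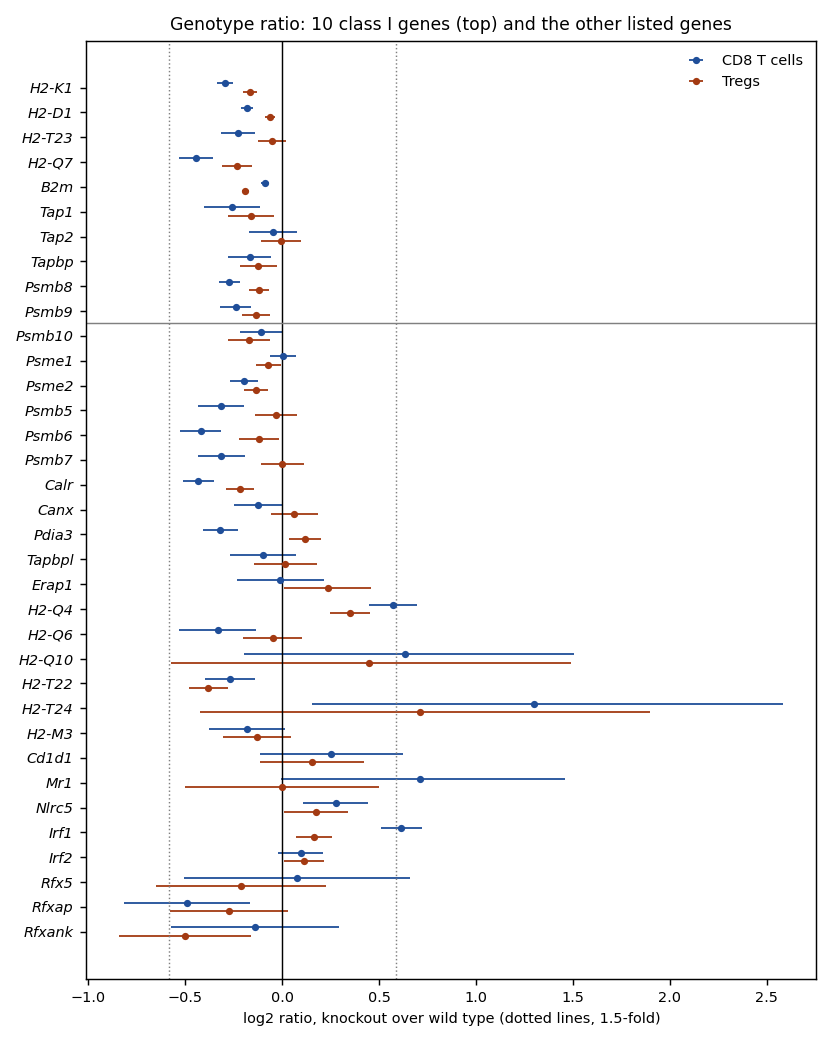
Points give the log2 ratio of knockout over wild type for CD8 T cells and Tregs, with bars for the 95% exact interval of counting error, dotted lines at 1.5-fold and the 10 class I genes above the horizontal line. All 20 points of the 10 genes lie below 0 and inside the dotted lines, from -0.45 for *H2-Q7* in CD8 T cells to -0.01 for *Tap2* in Tregs, while the other listed genes lie on both sides.

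Cell state differed between the libraries and moved with the same genes. Cells with 2 or more UMIs of the naive markers made up 32.7% (29.6 to 35.8) of wild-type and 61.1% (58.3 to 63.9) of knockout CD8 T cells, and 27.4% (25.2 to 29.7) and 32.5% (30.1 to 35.0) of Tregs. Cells with 2 or more UMIs of the proliferation genes *Mki67*, *Top2a* and *Birc5* made up 22.2% and 9.92% of CD8 T cells and 11.6% and 14.0% of Tregs. These states overlap, and the cells with none of them and no *Tnfrsf9* UMI, called the remaining cells, numbered 322, 319, 550 and 613 in the order given above.

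The heavy chains and *B2m* were lower in naive-marker cells than in the remaining cells of the same group, in all 4 groups. *H2-T23* in wild-type CD8 T cells, for example, had 255 CPM in naive-marker and 381 in remaining cells, a log2 ratio of -0.58 (-0.75 to -0.42). *Tap1*, *Tap2* and *Tapbp* did not follow this in CD8 T cells, where their 6 ratios ran from -0.12 to 0.07 with intervals that included 0. In proliferating cells *H2-K1*, *H2-D1* and *B2m* were again lower, whereas *Psmb9* was at 0.29 (0.15 to 0.43) in wild-type CD8 T cells and 0.30 (0.17 to 0.44) in knockout Tregs. In wild-type Tregs *Psmb9* was at 0.14 (0.01 to 0.28), and in knockout CD8 T cells at 0.07 (-0.10 to 0.23), which included 0. *Tap2* had the lowest ratios in proliferating Tregs, -0.67 (-0.89 to -0.46) in the wild type and -0.68 (-0.88 to -0.47) in the knockout. Proliferating cells were deeper, with medians of 10773 to 13615 UMIs against 3309.5 to 5428 in remaining cells, and the part of depth in these ratios was not tested.

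**Figure D4:**
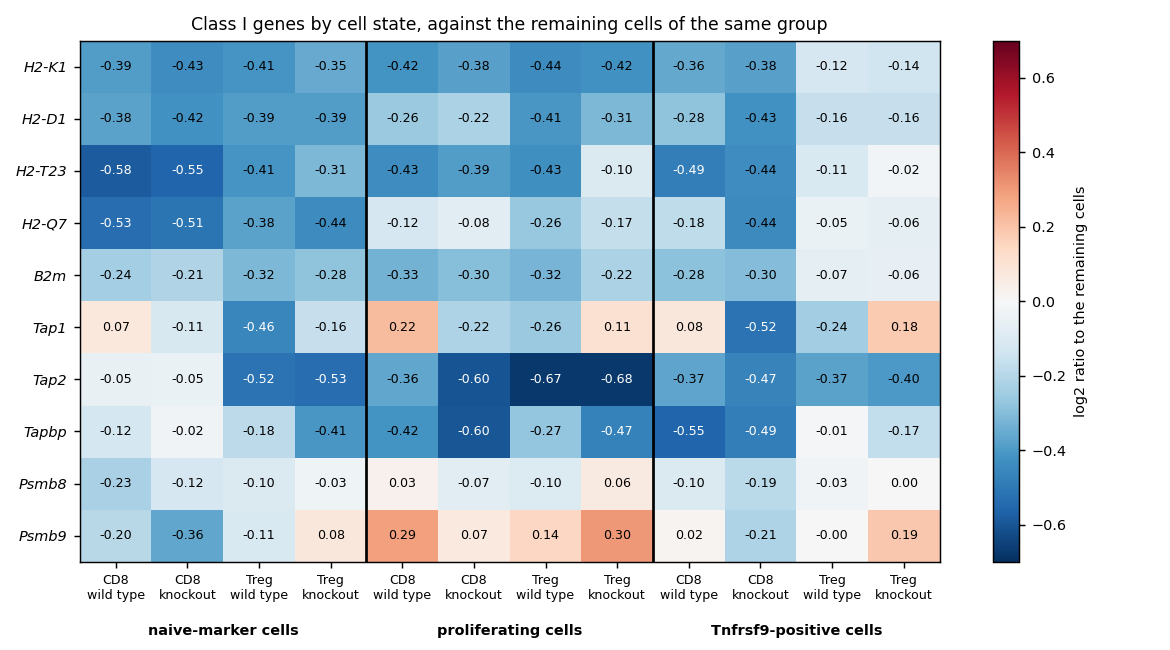
Each square is the log2 ratio of a gene's CPM in cells of a state over the remaining cells of the same lineage and library, with the number printed and blue for lower. The rows of *H2-K1*, *H2-D1*, *H2-T23*, *H2-Q7*, *B2m*, *Tap2* and *Tapbp* are below 0 in all 12 columns. Those of *Tap1*, *Psmb8* and *Psmb9* lie on both sides of 0, and *Psmb9* ranges from -0.36 to 0.30.

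Within each state the genotype ratios kept their direction in CD8 T cells. The *Tnfrsf9*-positive and remaining states were set apart by UMIs of the deleted gene, so they need not match between genotypes. The *Tnfrsf9*-positive share of CD8 T cells was 26.9% (wild type) against 11.8% (knockout), and among Tregs 50.2% against 29.6%. The median of the 10 genes was -0.17 in naive-marker cells, -0.26 in proliferating cells, -0.26 in *Tnfrsf9*-positive cells and -0.16 in the remaining cells. Over all genes the medians in these states were 0.04, 0.04, 0.03 and 0.07. In each state all 10 ratios were below 0, with 7, 9, 7 and 7 intervals below 0. In Tregs the medians of the 10 genes were -0.08, -0.05, -0.09 and -0.14, against 0.06, 0.04, 0.04 and 0.04 over all genes. There 9, 6, 9 and 8 of the 10 ratios were below 0. No share of all genes below 0 was taken within states, so these counts cannot be read as particular to the 10 genes. *H2-Q4* was higher in the knockout in all 4 states of both lineages, from 0.27 (0.09 to 0.45) in the remaining Tregs to 0.63 (0.42 to 0.83) in naive-marker CD8 T cells. A difference in the mix of these states was thus present between the libraries, and the genotype ratios were measured within the states as well. Only the naive-marker and proliferating states were defined without *Tnfrsf9*.

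The second comparison set CD8 T cells against Tregs of the same library. In wild-type cells 9 of the 10 genes had a lower level in CD8 T cells, 7 with intervals below 0, and the median log2 ratio, CD8 over Treg, was -0.23 against -0.12 over 11297 genes, of which 61.0% had a ratio and 31.3% an interval below 0. None of the 10 was past 1.5-fold, where 8.78% of genes were higher and 19.4% lower. The ratios ran from -0.36 (-0.48 to -0.23) for *Tap1* and -0.34 (-0.36 to -0.32) for *B2m* through -0.29 for *H2-D1*, -0.25 for *H2-K1*, -0.32 for *H2-T23*, -0.22 for *Tap2* and -0.21 for *Tapbp*, to intervals that included 0 for *H2-Q7* (-0.04) and *Psmb9* (-0.03). *Psmb8* was the exception, at 0.07 (0.02 to 0.12), and its sign turned in thinned cells (-0.01) and without proliferating cells (-0.03).

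In knockout cells all 10 ratios and intervals were below 0, with a median of -0.26 against -0.15 over 11419 genes, of which 66.5% had a ratio and 34.5% an interval below 0. Again none was past 1.5-fold, against 8.39% of genes higher and 17.5% lower. The lowest were *H2-T23* at -0.49 (-0.57 to -0.41), *Tap1* at -0.45 (-0.59 to -0.32), *H2-D1* at -0.42 (-0.45 to -0.39) and *H2-K1* at -0.38 (-0.42 to -0.34). *B2m* was at -0.24, *H2-Q7* and *Tapbp* at -0.25 and *Tap2* at -0.26. *Psmb8* at -0.09 and *Psmb9* at -0.13 lay nearest to 0, and both turned positive, to 0.07 and 0.03, under scaling by trimmed mean of M values (TMM), which centres the ratios of all genes near 0. With that scaling the medians were -0.13 in wild-type and -0.10 in knockout cells, both nearer to 0 than the values above.

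Of the 26 other listed genes, 2 were past 1.5-fold higher and 4 lower in wild-type CD8 T cells, and 2 higher and 2 lower in the knockout. *Fcgrt* had 32 UMIs in CD8 T cells and 1 in Tregs of the wild type, a ratio of 5.34 (2.76 to 10.69), and 73 and 6 in the knockout, 3.65 (2.46 to 5.14). In the wild type *Mr1* (-1.15), *Cd1d1*, which presents lipids to NKT cells (-0.76), *Rfx5*, another RFX subunit (-0.73), and *Rfxank* (-0.71) were lower in CD8 T cells. In the knockout *H2-Q6* (-0.71) and *Cd1d1* (-0.66) were lower, and the intervals were wide for *H2-Q10* (0.85, 0.02 to 1.72) and *H2-T24* (0.52, -0.41 to 1.48).

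Markers of other cells were uneven between the lineages. The class II genes *H2-Aa*, *H2-Ab1* and *H2-Eb1* with *Cd74* summed to 201 CPM in wild-type and 295 in knockout CD8 T cells and to 154 and 83.0 in Tregs. In CD8 T cells 10 cells held 89.4% and 89.3% of these UMIs, and in Tregs 12.6% and 14.9%. The defining myeloid genes *Lyz2*, *Csf1r*, *Itgam* and *Adgre1* were each at or below 1.47 CPM, while *Cst3* alone had a UMI in 51.5 to 68.8% of cells. B cell genes summed to 2.25 to 8.60 CPM, acinar genes to 20.2 to 68.4, endocrine genes to 10.6 to 22.8 and haemoglobin genes to at most 0.285. Without cells with 2 or more class II UMIs the medians of the 10 genes were -0.24 and -0.10 between genotypes in CD8 T cells and Tregs, and -0.20 and -0.24 between lineages in the wild type and knockout.

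The third comparison linked the genes to interferon-marked cells. Cells were grouped by the summed UMIs of *Isg15*, *Ifit1* and *Ifit3*, 3 genes induced by type I interferon, into none, 1 to 2, and 3 or more. The top group held 40 of 891 wild-type CD8 T cells (4.49%; 3.23 to 6.06), 41 of 1200 knockout CD8 T cells (3.42%; 2.46 to 4.61), 86 of 1552 wild-type Tregs (5.54%; 4.46 to 6.80) and 47 of 1444 knockout Tregs (3.25%; 2.401 to 4.305). The intervals of the 2 Treg groups did not overlap, at nearly equal median depth. Deeper cells reach 3 UMIs more easily, and the median depth was 6599.5 against 6011 UMIs for the top group against none in wild-type CD8 T cells, 5830 against 5235 in knockout CD8 T cells, 5667 against 4042.5 in wild-type Tregs and 5556 against 4093 in knockout Tregs.

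Interferon genes outside the rule checked the grouping. *Irf7*, a factor that amplifies the interferon response, was higher in the top group than in cells with none by log2 ratios of 2.58, 2.90, 2.87 and 2.38 in the order wild-type CD8, knockout CD8, wild-type Treg and knockout Treg. *Usp18*, which restrains interferon signalling, had 4.24, 4.05, 3.94 and 4.27, *Mx1*, an antiviral GTPase, 4.33, 4.54, 5.85 and 6.31, *Bst2* or tetherin 1.27, 1.93, 1.27 and 1.41, *Stat2* 1.75, 1.45, 1.67 and 2.07, and *Ifi27l2a* 1.53, 1.26, 1.22 and 0.99. *Rsad2* or viperin had 7.17 (5.17 to 10.29) in wild-type Tregs and had 21 UMIs in the top group against 0 in wild-type CD8 T cells, while the other 2 groups had fewer than 20 UMIs of it.

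Class I genes were higher in the interferon-marked cells, unevenly by role. The median log2 ratio of the 10 genes was 0.40 in wild-type and 0.50 in knockout CD8 T cells and 0.49 and 0.40 in Tregs, while the medians over all tested genes were -0.10, -0.06, -0.07 and -0.09. The intervals lay above 0 for 8, 10, 9 and 7 of the 10 genes, and no member had an interval below 0. Over all genes tested the shares with an interval above 0 were 4.96%, 4.73%, 5.40% and 4.72%. These shares have to be read with depth, since intervals are narrower for abundant genes. In wild-type CD8 T cells the median bounds of the interval were -1.25 and 0.91 over all genes, against 0.16 and 0.67 for the 10. Past 1.5-fold higher were 2, 5, 3 and 1 of the 10, against 12.9%, 12.4%, 8.5% and 11.2% of genes tested in these groups. None of the 10 was past 1.5-fold lower, against 24.1%, 21.4%, 17.7% and 22.4% of genes. With at least 100 instead of 20 UMIs per gene, the shares past 1.5-fold over all comparisons ran from 1.21 to 17.6%.

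*H2-T23* had the widest difference in CD8 T cells. Its level was 282 CPM in wild-type CD8 T cells with no interferon UMI, 341 with 1 to 2 and 549 with 3 or more, a log2 ratio of the last to the first of 0.96 (0.73 to 1.19). In knockout CD8 T cells it was 249.7, 267 and 426, a ratio of 0.77 (0.51 to 1.03). In Tregs the ratios were 0.48 (0.30 to 0.66) in the wild type and 0.49 (0.26 to 0.72) in the knockout, from levels of 353, 432 and 493 CPM and of 351, 400.4 and 493 CPM across the bins. The level went up from bin to bin in all 4 groups, though the intervals of the first 2 bins overlapped in knockout CD8 T cells and those of the upper 2 bins overlapped in both Treg groups.

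The classical heavy chains differed little. *H2-K1* had ratios of 0.22 (0.09 to 0.35), 0.24 (0.10 to 0.38), 0.17 (0.08 to 0.26) and 0.09 (-0.03 to 0.21) in wild-type CD8, knockout CD8, wild-type Treg and knockout Treg cells. *H2-D1* had 0.22 (0.12 to 0.32), 0.13 (0.02 to 0.24), 0.03 (-0.04 to 0.10) and -0.04 (-0.14 to 0.05). *H2-Q7* had -0.03 (-0.33 to 0.26), 0.42 (0.12 to 0.71), 0.24 (0.04 to 0.44) and 0.10 (-0.19 to 0.37). *B2m* had 0.27 (0.20 to 0.34), 0.33 (0.26 to 0.40), 0.15 (0.11 to 0.20) and 0.16 (0.10 to 0.23). *H2-K1*, *H2-D1* and *H2-Q7* are the genes whose promoters are printed above with TTTCNNTTC. In each group their ratios were smaller than that of *H2-T23*, a comparison of ratios and not of levels. *B2m* shares the longer form with *H2-T23*, yet its ratio was below that of *H2-Q7* in knockout CD8 T cells and wild-type Tregs. In wild-type Tregs it was also below that of *H2-K1*, and in all other such comparisons *B2m* was higher. *Tap1*, *Tapbp*, *Psmb8* and *Psmb9*, whose searched windows held neither form, had higher ratios than *B2m* in every group. Whether these letters bear on the ratios was not tested.

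Beside the peptide supply genes, *H2-T23* had the highest ratio in both CD8 groups but not in either Treg group. *Tapbp* had 0.89 (0.58 to 1.19) and 0.66 (0.31 to 0.98) in wild-type and knockout CD8 T cells and 0.50 (0.26 to 0.73) and 0.36 (0.03 to 0.67) in Tregs. *Tap1* had 0.57 (0.13 to 0.98), 0.59 (0.10 to 1.04), 0.69 (0.40 to 0.96) and 0.69 (0.32 to 1.05), nearly the same in all groups, and *Tap2* had 0.36 (-0.06 to 0.75), 0.63 (0.25 to 0.99), 0.58 (0.32 to 0.84) and 0.44 (0.09 to 0.77). *Psmb8* had 0.51 (0.35 to 0.67), 0.41 (0.23 to 0.59), 0.61 (0.49 to 0.73) and 0.56 (0.40 to 0.72), and *Psmb9* 0.43 (0.18 to 0.67), 0.61 (0.36 to 0.86), 0.74 (0.57 to 0.91) and 0.47 (0.23 to 0.71). In all 4 groups *Tap1*, *Tap2*, *Tapbp*, *Psmb8* and *Psmb9* had higher ratios than *H2-K1*, *H2-D1* and *B2m*, though not all of the intervals were apart.

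**Figure D5:**
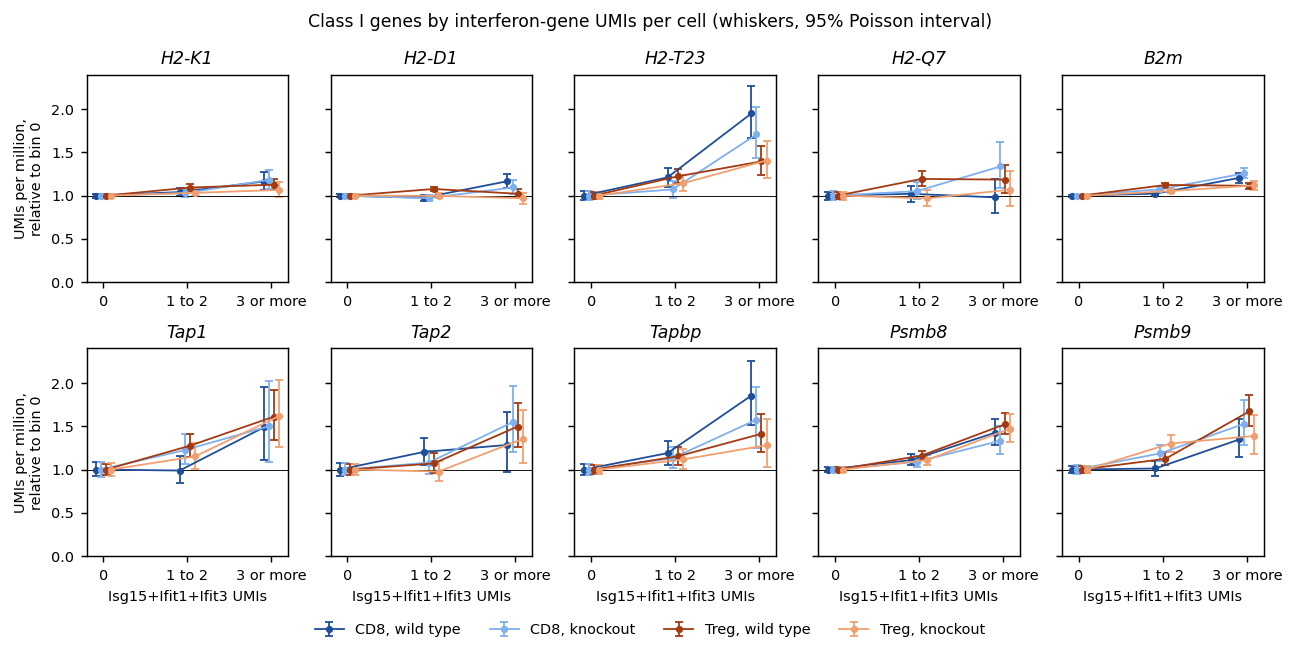
Each panel is 1 gene, with the CPM in cells with 0, 1 to 2, and 3 or more interferon-gene UMIs divided by the value in cells with 0, for the 4 groups, and whiskers for the 95% exact Poisson interval of each bin. *H2-D1* stays near 1 in all groups, with log2 ratios of -0.04 to 0.22, while *H2-T23* reaches a log2 ratio of 0.96.

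An alternative left out cells with 2 or more UMIs of listed genes of other cell types, *Cst3* included, which took out 36.5% and 23.9% of CD8 T cells and 45.1% and 36.6% of Tregs. Without them *H2-K1* turned to -0.04, -0.11 and -0.12 in wild-type CD8, knockout CD8 and wild-type Treg cells, and *B2m* turned to -0.05 in wild-type Tregs. With *Cst3* not counted, the medians of the 10 genes were 0.41, 0.43, 0.48 and 0.36. Without cells with 2 or more class II UMIs they were 0.39, 0.50, 0.40 and 0.28.

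Across single cells the link was weak. After thinning to 2000 UMIs, the Spearman correlation of the summed 10 genes with the summed *Isg15*, *Ifit1* and *Ifit3* UMIs was 0.06 over 874 wild-type CD8 T cells, 0.07 over 1184 knockout CD8 T cells, 0.14 over 1476 wild-type Tregs and 0.10 over 1389 knockout Tregs. Cells of a group share a library, 787, 1044, 1264 and 1246 of these cells had no interferon UMI after thinning, and counts this sparse make no finding of such values.

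Other class I genes were compared in the same cells. Of the listed genes 24, 25, 23 and 23 were tested in wild-type CD8, knockout CD8, wild-type Treg and knockout Treg cells, with medians of 0.05, 0.33, 0.19 and 0.21 and with 5, 6, 6 and 8 intervals above 0, against 4.96%, 4.73%, 5.40% and 4.72% of all genes. The 1 interval below 0 was that of *Pdia3* in knockout Tregs, at -0.40 (-0.74 to -0.07), named after its value was seen. Past 1.5-fold higher were 4, 4, 2 and 5 of them, and past 1.5-fold lower 1 in wild-type CD8 T cells and 2 in knockout Tregs. *H2-T22* had 1.10 (0.77 to 1.42) in wild-type CD8 T cells and 0.89 (0.67 to 1.10) in wild-type Tregs, *H2-M3*, which presents bacterial N-formyl peptides, had 0.98 (0.41 to 1.499) in knockout CD8 T cells, *Psmb10*, the remaining immunoproteasome subunit, had 0.73 (0.40 to 1.04) in wild-type CD8 T cells and 0.62 (0.37 to 0.87) in wild-type Tregs, and *Nlrc5*, the class I transactivator, 0.48 (0.03 to 0.90) in the same cells. *Erap1*, which trims peptides, had 0.68 (-0.04 to 1.32) and 0.87 (0.22 to 1.47) in knockout CD8 T cells and Tregs but -0.51 (-1.37 to 0.24) in wild-type Tregs. *Fcgrt* in CD8 T cells had 2.19 (0.41 to 3.66) in the wild type and 1.06 (-0.63 to 2.39) in the knockout. The sparse genes *Rfx5* (-1.24 in wild-type CD8, 0.85 in knockout Tregs), *Rfxank* (1.04 and 0.99 in CD8 T cells, -0.44 in wild-type Tregs), *Rfxap* (-1.83 in knockout Tregs), *Mr1* (1.09 in knockout Tregs), *Cd1d1* (-0.77 in knockout Tregs) and *H2-Q10* (0.56 in knockout CD8) had intervals that included 0.

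The share of immunoproteasome subunits over their constitutive counterparts gave a measure that does not depend on the scaling between groups. *Psmb8* made up 81.9% (80.9 to 82.8) of *Psmb8* and *Psmb5* UMIs in wild-type and 82.3% (81.3 to 83.2) in knockout CD8 T cells, and 81.8% (81.0 to 82.6) and 80.9% (80.0 to 81.8) in Tregs. *Psmb9* made up 62.3% (60.8 to 63.8) of *Psmb9* and *Psmb6* UMIs in wild-type and 65.2% (63.7 to 66.7) in knockout CD8 T cells, and 66.7% (65.3 to 68.0) and 66.4% (65.0 to 67.8) in Tregs. The constitutive subunits were also lower in knockout CD8 T cells, with log2 ratios of -0.32 for *Psmb5* and -0.42 for *Psmb6*. For *Psmb10* over *Psmb7* the shares were 52.8%, 56.3%, 53.7% and 50.7%.

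In interferon-marked cells the share of *Psmb9* was higher in all 4 groups. It was 62.1% (60.4 to 63.8) with no interferon UMI and 72.6% (66.0 to 78.5) with 3 or more in wild-type CD8 T cells, 63.6% (61.7 to 65.4) and 73.3% (66.5 to 79.4) in knockout CD8 T cells, 65.1% (63.5 to 66.7) and 74.7% (70.4 to 78.7) in wild-type Tregs, and 65.0% (63.3 to 66.7) and 72.5% (66.0 to 78.4) in knockout Tregs. The 2 intervals were apart in 3 groups and overlapped in knockout Tregs. The share of *Psmb8* went from 80.9% (79.8 to 81.9) to 86.5% (82.8 to 89.8) in wild-type CD8 T cells, from 81.1% (80.1 to 82.1) to 85.0% (82.2 to 87.5) in wild-type Tregs and from 80.3% (79.2 to 81.4) to 86.7% (83.0 to 89.9) in knockout Tregs. In knockout CD8 T cells it was 81.4% (80.2 to 82.5) and 83.2% (78.7 to 87.1), which overlapped, with 85.0% (83.1 to 86.8) in the middle bin. *Psmb5*, *Psmb6* and *Psmb7* had ratios between -0.34 and 0.23, with intervals that included 0 in every group.

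Correlations between the 10 genes within groups were mostly small. All 45 pairs had a positive mean Spearman correlation over the 4 groups in thinned cells, from 0.02 to 0.32 with a median of 0.07. Some pairs were below 0 in a single group, down to -0.04 for *Tap1* with *Tapbp*. No share of positive pairs was taken over other genes, so this count cannot be read as particular to the 10. The highest were *H2-D1* with *B2m* at 0.32, *H2-K1* with *H2-D1* at 0.31 and *H2-K1* with *B2m* at 0.28, and these are the 3 members with the most UMIs. The lowest was *Tap1* with *Tapbp* at 0.02.

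The genes most like the summed 10 across cells were taken from 2330 other genes found in at least 10% of thinned cells of every group. Their median correlation with the sum was 0.01. *AW112010* led with a mean Spearman correlation of 0.39 over the 4 groups (lowest 0.30, highest 0.49), followed by *Cd3g*, a chain of the T cell receptor complex, at 0.27 and *Ly6a*, which encodes Sca-1, at 0.25. *S100a6* (0.23), the chemokine gene *Ccl5* (0.22), the inhibitory receptor gene *Lag3* (0.21), *Itm2b* (0.21), *S100a4* (0.21), the cytotoxic granule gene *Nkg7* (0.20) and *Ptprcap* (0.20) completed the first 10. *Ly6a* had the widest range between groups, 0.08 to 0.43. These values are a description of 874 to 1476 cells per group that share a library.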

How the data were processed

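The authors deposited UMI counts per gene and cell for each library, made with Cell Ranger 7.0.0 from Chromium 3' v2 libraries (per the labels' processing notes, build mm10), not normalized. The counting of reads in introns or shared between paralogs is not given in the sources used here. The 10 genes and all lists were chosen with earlier results of these data known. UMIs were summed over the cells of each lineage and library and divided by the group total, with exact Poisson, binomial and conditional intervals (95%, counting error only) in Python 3.11.15 with scipy 1.17.1. Zero counts entered ratios as 0.5, genes needed at least 20 UMIs over both groups, and 1.5-fold was the mark for background shares. The ratios and intervals were tested on simulated data. No doublet caller was run: cells with *Cd8a* or *Cd8b1* UMIs and *Cd4* or *Foxp3* UMIs fell outside both classes, and the deepest 5% of cells were left out in an alternative. Named by rule were the 10 genes, up to 5 other listed genes per comparison by size of the log2 ratio, the 10 genes most correlated with the summed members, *Tnfrsf9*, and interferon genes that checked the bins. The list held 27 genes, and 26 were among the symbols of the files. Coordinates are from GENCODE vM21 (GRCm38), promoters from RefSeq. Alternatives covered filters, 3 other scalings (edgeR 4.0.16 TMM, median of ratios, totals without ribosomal protein and mitochondrial genes), equal cell weight, thinning to 2000 UMIs, cell subsets and other interferon cut-offs. The alternatives on class II UMIs and on *Cst3* were chosen after seeing the data, as was the naive state by *Lef1* and *Ccr7* in place of the planned list. A planned list gene and a planned naive marker are not reported here.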

Additional observations from a re-analysis of the deposited data

Results flagged for a closer look

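The following genes had ratios on opposite sides of 0, both beyond counting error, in the 2 lineages or the 2 libraries; with 1 library per genotype these differences were not tested. *Isg15*, an interferon-induced ubiquitin-like protein, had a log2 ratio of knockout over wild type of 0.37 in CD8 T cells and -0.42 in Tregs. *Pdia3*, a disulfide isomerase of the peptide-loading complex, had -0.32 in CD8 T cells and 0.12 in Tregs, and for CD8 over Treg it had 0.12 in wild-type and -0.32 in knockout cells. *Psmb8* had a ratio of CD8 over Treg of 0.070 in wild-type and -0.085 in knockout cells, and the second turned positive under 3 other scalings. *Irf1*, a factor that drives class I genes, had -0.36 and 0.095 for the same ratio. Each lineage ratio shares its cells with a genotype ratio, so the 2 *Pdia3* entries are not separate observations.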

How the results depend on the processing

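No paired analysis was possible because each genotype was 1 library, and leaving out a replicate could not be done for the same reason. Values are medians of the log2 ratios of the 10 genes. Between genotypes, the alternatives ran from -0.29 to -0.19 in CD8 T cells and -0.20 to -0.06 in Tregs. All 14 in each lineage stayed between the median of the lower and the median of the upper interval bounds of the 10 genes. That band is a typical interval of 1 gene and not an interval of the median. For CD8 over Treg the medians (wild type, knockout) moved nearer to 0 with TMM (-0.13, -0.10), median of ratios (-0.13, -0.13) and totals without ribosomal protein and mitochondrial genes (-0.14, -0.11), since all genes had a median below 0 before scaling. They moved away from 0 without cells with a *Lef1* or *Ccr7* UMI (-0.37, -0.41; run in place of the planned naive-marker alternative, which was not run), to -0.37 in the knockout with equal cell weight, and nearer to 0, at -0.16, in the wild type without cells with UMIs of other cell types. *Psmb8* and *Psmb9* of knockout cells turned positive with TMM (0.070, 0.026), median of ratios (0.047, 0.0022) and totals without ribosomal protein and mitochondrial genes (0.065, 0.020), *Psmb9* of knockout cells also without cells with a *Lef1* or *Ccr7* UMI (0.024), and *Psmb8* of wild-type cells turned negative when thinned (-0.0054) or without proliferating cells (-0.032). Of values whose interval did not include 0, the kind listed here, 2 turned between genotypes, *Psmb8* in Tregs with *Foxp3* UMIs only (0.0024, 281 and 205 cells) and *Irf1* in CD8 T cells without cells with a *Lef1* or *Ccr7* UMI (-0.046).

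In the interferon comparison all medians stayed above 0. With 1 or more UMIs as the cut-off they were 0.11 and 0.19 in wild-type and knockout CD8 T cells and 0.26 in wild-type Tregs, and in knockout CD8 T cells 0.24 with *Ifit1* and *Ifit3* only and 0.24 with *Isg15* only. Without cells with UMIs of other cell types wild-type Tregs had 0.16. Single genes with an interval above 0 that turned negative were *H2-K1* (-0.037) in wild-type CD8, *H2-K1* (-0.11) and *H2-D1* (-0.047) in knockout CD8, and *H2-K1* (-0.12) and *B2m* (-0.049) in wild-type Tregs without those cells; *H2-D1* in knockout CD8 with 1 or more UMIs (-0.015) or *Isg15* only (-0.020); *H2-K1* (-0.037) and *Tap1* (-0.25) in knockout CD8 with *Ifit1* and *Ifit3* only (19 cells); *H2-K1* (-0.028) and *H2-Q7* (-0.099) in wild-type Tregs without proliferating cells, and *H2-Q7* (-0.037) there with *Ifit1* and *Ifit3* only. Thinning left 11 to 32 cells in the top bins, where *H2-Q7* in knockout CD8 (-0.82) and *Tap1* in knockout Tregs (-0.40) turned negative and *Tnfrsf9* in wild-type Tregs turned positive (0.039); the cause of these turns was not tested. Of 16 background shares, 9 moved by over 1.5 times with at least 100 UMIs per gene, over a range of 1.21 to 17.6%.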
